A study of Mus musculus with 3 samples.

Results

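The regions described here are the broad H3K4me3 peaks of mouse leukaemia cells of the precursor B-cell type (acute lymphoblastic leukaemia), 1057 of the 18142 H3K4me3 peaks in the list (5.83%). They were selected on 1 measured value, a width of 4000 bp or more in the H3K4me3 list as deposited, without joining neighbours. The series measured 3 chromatin immunoprecipitations followed by sequencing: 1 for H3K4me3, 1 for H3K27ac and 1 with control immunoglobulin (IgG). All came from the same cultured, untreated leukaemia cells driven by Bcr-Abl, the fusion kinase of the Bcr and Abl1 genes, grown in RPMI medium with 10% serum. The sources used here give neither the strain or sex of the donor mouse nor whether the line is 1 clone. Each mark had a single library, so replicate error is unknown and no test between samples was made. Intervals in brackets are 95% intervals computed as if peaks were independent of each other. They reflect counting error alone, and the sequencing depth behind each list is unknown.

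H3K4me3 is trimethylation of lysine 4 of histone H3, laid down by SET1 and MLL complexes around the start sites of genes, most strongly at CpG-rich promoters. Most promoters carry it over a pair or a handful of nucleosomes on each side of the start site, but at some the mark spreads several kilobases into the transcribed region. Such broad domains are known from many cell types, where they often lie at genes important for the identity of the cell. H3K27ac, acetylation of lysine 27 of the same histone by p300 and CBP, marks active promoters and enhancers and needs another enzyme system. Its peaks come from a separate immunoprecipitation of the same cells and were not used to choose the broad peaks. Whether the marks are independent of each other there was not tested. No sequence or gene annotation of mm9, the mouse build of the lists, was used here. Regions are therefore given by position on mm9, counted from 1, and whether they hold the genes of B-cell identity was not examined.

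Broad peaks were few but took up a sizeable part of the H3K4me3 territory. They covered 5.43 Mb, 15.2% of the summed H3K4me3 length. Their median width was 4760 bp (interval 4682 to 4821 bp), with quartiles of 4318 and 5504 bp and a range of 4001 to 15269 bp. By width, with each range ending just below its upper value, 635 measured 4 to 5 kb, 255 measured 5 to 6 kb, 125 measured 6 to 8 kb and 42 measured 8 kb or more. Widths formed no separate class at the limit, since the 5 narrowest broad peaks were all 4001 bp and the 5 widest peaks below it were 3994 bp or more. The peaks just outside were covered by H3K27ac over 77.4 to 100% of their length and the 5 just inside over 91.1 to 100%.

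**Figure D1:**
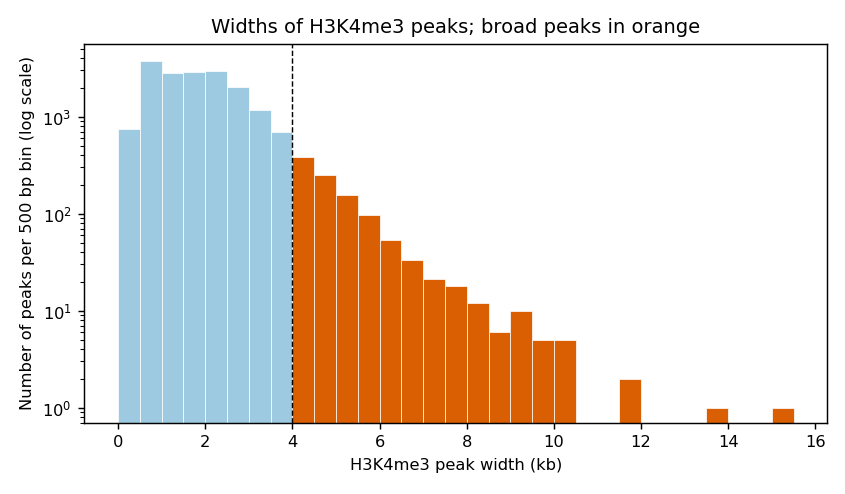
Number of H3K4me3 peaks (log scale) in bins of 500 bp of peak width in kb; the dashed line is the limit of 4000 bp and orange bars are the 1057 broad peaks. Counts fall without a break across the limit, and a thin tail reaches 15269 bp.

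The deposited score, which no header or label defines, was at its most common value of 3100 or above in 1043 broad peaks (98.7%), against 50.3% of all H3K4me3 peaks. Score and width come from the same list, so this is a description of the selected peaks and not a separate finding. The 14 broad peaks with lower scores measured 4150 to 5413 bp. The lowest by far was a peak of 5413 bp on the X chromosome (166427004 to 166432416) with a score of 73.08. It lay wholly inside an H3K27ac peak of 6236 bp whose own score was 296.7. The next was a peak on chromosome 5 (83289410 to 83293559) with a score of 1011.62, inside an H3K27ac peak of 14097 bp. In 12 of these 14 low-scoring broad peaks H3K27ac covered the whole length and ran past both edges. The exception with the least cover was on chromosome 5 (58104835 to 58109250, score 1533.08), with 65.5% of its length covered in 2 H3K27ac peaks.

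The first question was how much of a broad H3K4me3 peak also carried acetylation. Acetylation was present at every broad peak and filled nearly all of it. All 1057 met an H3K27ac peak by at least 1 bp (100%, interval 99.7 to 100%), where 86.1% of all H3K4me3 peaks did. A wide peak can meet another more easily, so shares of length are more informative, although bare ends weigh less in a wider peak. The median broad peak had 97.0% of its length inside H3K27ac (interval 96.2 to 97.6%), against 92.6% (interval 92.0 to 93.3%) for H3K4me3 peaks of 3 to 4 kb and 90.2% (interval 89.8 to 90.7%) for those of 2 to 3 kb. At least 50% of the length was covered in 1052 broad peaks (99.5%), where 84.2% of all H3K4me3 peaks reached that level. Most of the gap to the whole list came from the narrow peaks, since peaks of 3 to 4 kb already stood at 99.0%. Complete cover was less common, with 369 broad peaks (34.9%, interval 32.0 to 37.9%) lying wholly inside acetylated sequence, above the 24.4% of the 3 to 4 kb class but below the 45.6% of peaks under 1 kb. Complete cover thus did not rise steadily with width.

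Within the broad peaks, acetylation was fullest in the middle. The central 1000 bp was completely acetylated in 97.4% (interval 96.3 to 98.3%) of broad peaks, close to the 95.7% (interval 94.6 to 96.5%) of the 3 to 4 kb class. Over all H3K4me3 peaks the share was 74.3%, with the whole peak taken as the window where it was under 1 kb. The mean cover of this window in broad peaks was 99.3%. The outermost 500 bp at each end had a mean cover of 77.0%. The drop at the ends was also present in the 3 to 4 kb class, where the mean cover was 98.9% in the centre and 72.7% at the ends.

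Cover rose further with width among the broad peaks themselves. The median was 96.1% (interval 94.6 to 96.9%) at 4 to 5 kb, 97.2% at 5 to 6 kb, 99.7% at 6 to 8 kb and 100% (interval 99.1 to 100%) at 8 kb or more. Of the 42 widest, 40 (95.2%) were acetylated over at least 90% of their length, against 68.8% (interval 65.1 to 72.4%) of those of 4 to 5 kb. The share of length outside acetylation thus fell with width. A bare end of fixed length takes a smaller share of a wider peak, so this share depends in part on width itself. In the outermost 500 bp at each end, a window of fixed size, mean cover in order of width was 75.6, 77.5, 80.1 and 85.4%.

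A handful of broad peaks departed from this. In 66 (6.24%) less than 75% of the length was acetylated, and in 5 less than 50%. The least covered was a peak of 4074 bp on chromosome 13 (40825120 to 40829193), where an H3K27ac peak of 1025 bp left of the centre covered 25.2%. It was also the only broad peak with no H3K27ac in its central 1000 bp. The next were a peak on chromosome 5 (32435111 to 32439817) with 44.3% covered, one on chromosome 4 (88364350 to 88369078) with 46.2%, another on chromosome 4 (122959477 to 122963807) with 48.5% and one on chromosome 9 (57786927 to 57791603) with 49.2%. All 5 scored 3100 for H3K4me3 and measured 4074 to 4729 bp, below but in part close to the median width of broad peaks, 4760 bp. The chromosome 5 peak and the second of those on chromosome 4 had no other peak of either mark in the 50 kb on each side, whereas the chromosome 9 peak had H3K27ac over 26.9% of those flanks.

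The second question was whether the marks begin and end together. At 976 broad peaks (92.3%) exactly 1 H3K27ac peak lay over the H3K4me3 peak. A single H3K27ac peak was not particular to broad peaks. In the 3 to 4 kb class 99.7% met H3K27ac and only 5.56% met 2 or more H3K27ac peaks. Over all H3K4me3 peaks these shares were 86.1 and 2.57%. In 870 broad peaks (82.3%, interval 79.9 to 84.6%) the single acetylated peak met no other H3K4me3 peak, a pairing measured for broad peaks only. In these pairs the median H3K27ac width was 5020 bp beside 4724 bp for H3K4me3, with a median difference, H3K27ac minus H3K4me3, of 137 bp (interval 55 to 238 bp). The acetylated peak exceeded the methylated one in width in 486 pairs (55.9%, interval 52.5 to 59.2%), although the members had been chosen for wide H3K4me3 and not for wide H3K27ac. The widths lay within 1000 bp of each other in 606 pairs (69.7%). Corresponding edges of the marks were a median of 328 bp apart (interval 302 to 353 bp), and 63.4% of them lay within 500 bp. Across pairs the widths rose together, with Pearson's r of 0.64 and Spearman's rho of 0.65 (n = 870 sites in 1 library per mark, given as a description).

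**Figure D2:**
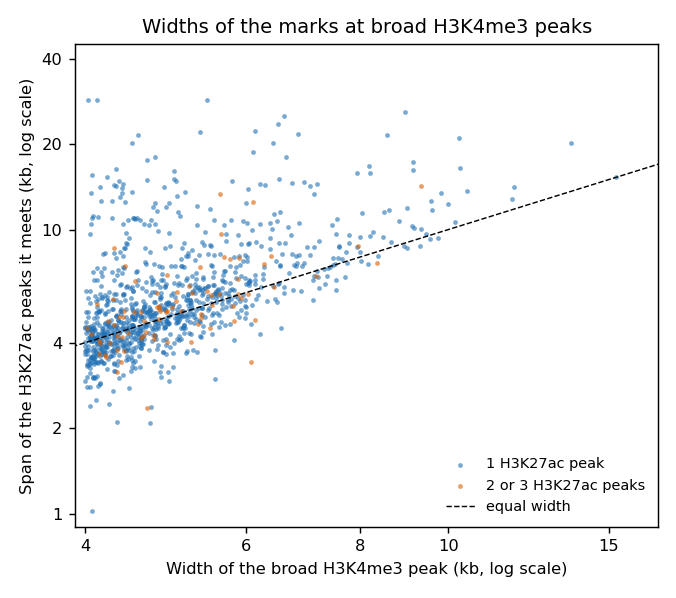
Width of each broad H3K4me3 peak against the span of the H3K27ac peaks it meets, both in kb on log scales; each point is 1 of 1057 peaks, blue for 1 H3K27ac peak and orange for 2 or 3, and the dashed line marks equal width. Most points lie along the line, with a cloud above it where acetylation spans up to 28.6 kb and few points far below it, down to 1.02 kb.

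Where the marks parted at broad peaks, acetylation more often ran on than stopped short. Single edges and the reach beyond them were measured for broad peaks only. Of the 2114 edges of broad peaks, H3K27ac passed 1260 (59.6%, interval 57.5 to 61.7%). Beyond a passed edge it went on for a median of 454 bp, with quartiles of 182 and 1250 bp. At 88 of the passed edges (6.98%) it went on for 5000 bp or more, and the longest extension, 23827 bp, ran on over further broad peaks in the chromosome 13 group described below. At the other 854 edges H3K4me3 outlasted H3K27ac by a median of 270 bp, and by 2646 bp at most. The bare H3K4me3 tails were thus short, while the acetylated tails had a long upper range. The measures differ in reach, since a bare tail cannot exceed its own peak and an acetylated tail has no such bound.

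Acetylation passed both edges in 37.6% of broad peaks (interval 34.6 to 40.6%), 1 edge in 44.1% and neither in 18.4%. It passed neither edge in 30.3% of the 3 to 4 kb class, 43.7% of peaks under 1 kb and 38.1% of all peaks below 4000 bp. Over all H3K4me3 peaks it passed both edges in 34.8%, a share close to that of the broad peaks, and in 45.7% of those under 1 kb. The classes between gave lower values, with 21.6% (interval 20.4 to 22.7%) at 2 to 3 kb and 26.1% (interval 24.1 to 28.2%) at 3 to 4 kb. Among H3K4me3 peaks scoring 3100 or more the share was 13.6% at 1 to 2 kb, 15.8% at 2 to 3 kb, 24.2% at 3 to 4 kb and 36.9% in broad peaks. Only 2 peaks under 1 kb had such a score, and both were passed at both edges. Within the broad peaks it went from 34.5% at 4 to 5 kb to 59.5% (interval 43.3 to 74.4%) at 8 kb or more.

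Seen from the other list, broad H3K4me3 accompanied only some of the wide acetylated peaks. A broad H3K4me3 peak lay on 25.1% of the 2895 H3K27ac peaks of 4 to 10 kb and on 36.2% (interval 30.8 to 41.8%) of the 307 of 10 kb or more, against 3.87% of all H3K27ac peaks. In turn, 844 broad H3K4me3 peaks (79.9%, interval 77.3 to 82.2%) met an H3K27ac peak of at least 4 kb, against 25.5% (interval 23.5 to 27.5%) of the 3 to 4 kb class and 16.9% of all H3K4me3 peaks. For H3K27ac peaks of at least 10 kb the shares were 11.3% (119 peaks, interval 9.41 to 13.3%), 2.67% and 2.68%. Broad H3K4me3 peaks thus met wide H3K27ac more often than H3K4me3 peaks of 3 to 4 kb did. For H3K27ac of at least 4 kb this follows largely from the selection. A single H3K27ac peak that covers nearly all of a broad peak is itself about 4 kb or wider. The same geometry favours H3K27ac of at least 10 kb at the 42 broad peaks of 8 kb or more. Most wide H3K27ac peaks had no H3K4me3 peak of this width.

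In 81 broad peaks (7.66%) the acetylation was split between 2 or more H3K27ac peaks, against 2.57% of all H3K4me3 peaks and 5.56% (interval 4.57 to 6.70%) of those of 3 to 4 kb. The 91 breaks were short, with a median of 101 bp (interval 66 to 132 bp) and a range of 3 to 1439 bp. They occurred along the whole peak: with the H3K4me3 peak cut into 5 equal parts, 16, 22, 12, 23 and 18 breaks were centred in them from left to right. The share in the middle part was 13.2% (interval 7.004 to 21.9%). The parts follow the genome coordinate and not the direction of a gene, and a preferred place was not tested. With H3K27ac peaks within 1000 bp joined, 0.189% of broad peaks still met 2, since nearly all breaks were shorter than that. The share also depended on the list, at 5.01% with H3K27ac scores of at least 100, 2.84% with the H3K27ac list cut to the length of the H3K4me3 list and 13.8% with H3K4me3 peaks within 1000 bp joined. There were 10 broad peaks with 3 H3K27ac peaks, among them one on chromosome 16 (32160349 to 32166631) with 97.4% of its length acetylated and one on chromosome 11 (69482554 to 69486794) with 78.8%. In the opposite arrangement, at 113 broad peaks (10.7%, interval 8.89 to 12.7%), the H3K27ac also reached a further H3K4me3 peak, which it did at 6.58% of the 3 to 4 kb class and 7.04% of all H3K4me3 peaks.

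The 10 widest broad peaks show these arrangements one by one. Each met exactly 1 H3K27ac peak, each scored 3100, and H3K27ac covered 95.3 to 100% of them. The widest, 15269 bp on chromosome 4 (44711833 to 44727101), lay under an H3K27ac peak of nearly the same extent, 15290 bp. The acetylated peak began 133 bp inside the left edge of the H3K4me3 peak and ended 154 bp past the right one. Immediately outside, acetylation stopped: H3K27ac covered 1.54% of the 5 kb on each side, the lowest of the 10, although it covered 19.96% of the 50 kb on each side. The second, 13642 bp on chromosome 16 (16859497 to 16873138), sat in a larger H3K27ac peak of 20098 bp that took in a second, small H3K4me3 peak. The third, 11803 bp on chromosome 11 (11584782 to 11596584), lay within 14077 bp of H3K27ac and had 12 peaks of H3K27ac alone within 100 kb. These 3 widest regions thus differed in their surroundings, with 10, 1 and 12 such peaks within 100 kb.

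The fourth, 11737 bp on chromosome 4 (149069523 to 149081259), had the most acetylated wide surroundings of the 10, with 23.5% of the 50 kb flanks. The fifth, 10481 bp on chromosome 8 (81147852 to 81158332), was the most isolated, with no other H3K4me3 peak within 100 kb and H3K27ac over 3.85% of the 50 kb flanks. A peak of 10278 bp on chromosome 9 (57485280 to 57495557) lay inside 21086 bp of H3K27ac, so that both 5 kb flanks were acetylated in full. On chromosome 19 a peak of 10181 bp (32827916 to 32838096) was the least covered of the 10, at 95.3%, because its H3K27ac peak ended inside the right edge. The remaining 3 lay on chromosome 3 (87944192 to 87954504), chromosome 11 (49056238 to 49066243) and chromosome 7 (25680848 to 25690661), with H3K27ac over 10.7, 7.22 and 21.6% of the 50 kb flanks.

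**Figure D3:**
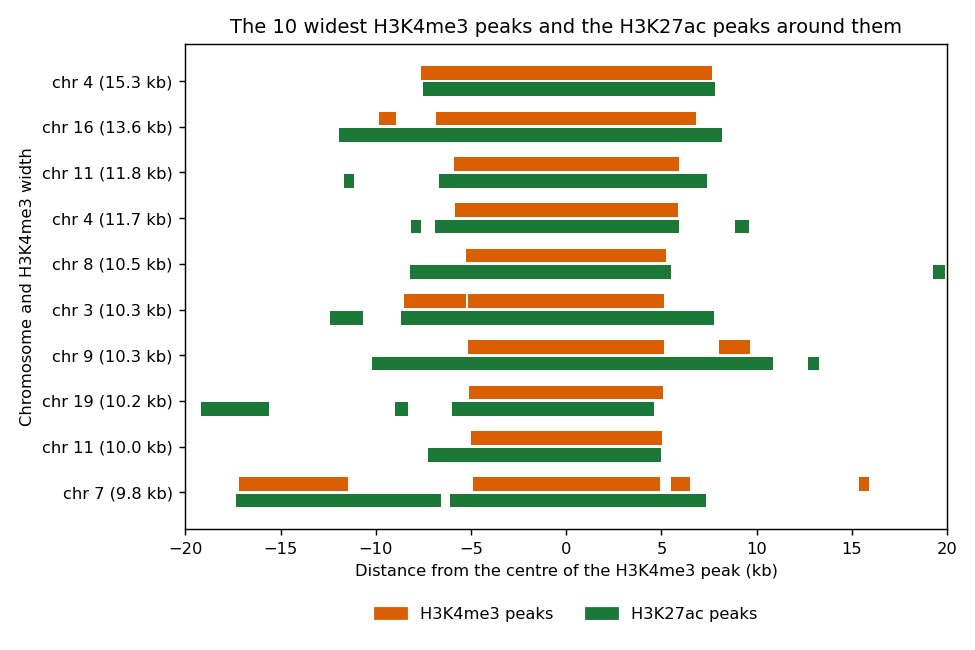
The 10 widest H3K4me3 peaks (orange) with the H3K27ac peaks around them (green), drawn to scale by distance in kb from the centre of the H3K4me3 peak and cut at 20 kb on each side. In each row 1 H3K27ac peak covers 95.3% or more of the central H3K4me3 peak; it passes both edges in 7 rows, most widely on chromosome 9, and 1 edge in 3 rows, among them the top row and chromosome 19.

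The third question was what lay around broad peaks, in windows of fixed size outside the peak that do not depend on its width. Leaving out 3 broad peaks on unplaced contigs left 1054. Broad peaks lay in more acetylated surroundings than other H3K4me3 peaks. H3K27ac covered a median of 9.27% of the 50 kb on each side (interval 8.42 to 10.1%), against 6.23% (interval 5.82 to 6.75%) around peaks of 3 to 4 kb and 5.67% (interval 5.55 to 5.80%) around all H3K4me3 peaks. The H3K4me3 list gave no such difference of size. Other H3K4me3 peaks covered a median of 3.30% (interval 3.03 to 3.61%) of the same flanks around broad peaks, 3.01% (interval 2.84 to 3.19%) around peaks of 3 to 4 kb and 2.97% around all. The acetylation around broad peaks therefore was not matched by an equal excess of H3K4me3.

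The difference from the 3 to 4 kb class was largest near the peak but did not end there. In the first 5 kb the mean H3K27ac cover was 20.4% around broad peaks and 13.5% around peaks of 3 to 4 kb. Part of this is the H3K27ac peak that runs out over the edge. From 5 to 10 kb the means were 13.8 and 9.52%, from 10 to 20 kb 11.8 and 8.72%, and from 20 to 50 kb 10.2 and 7.87%. In the outermost of these windows the medians were 6.54% (interval 5.94 to 7.35%) and 5.08% (interval 4.65 to 5.43%). The H3K27ac flanks of the 5 width classes were not ordered by width. The 2 to 3 kb class had lower means than both narrower classes in each window out to 20 kb. From 20 to 50 kb its mean, 6.99%, was still below the 7.28% of the 1 to 2 kb class. Next to the edge, in the first kb, peaks under 1 kb had a mean cover of 33.3%, about that of broad peaks, 33.7%. From 5 to 10 kb the mean around peaks under 1 kb was 8.96%.

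**Figure D4:**
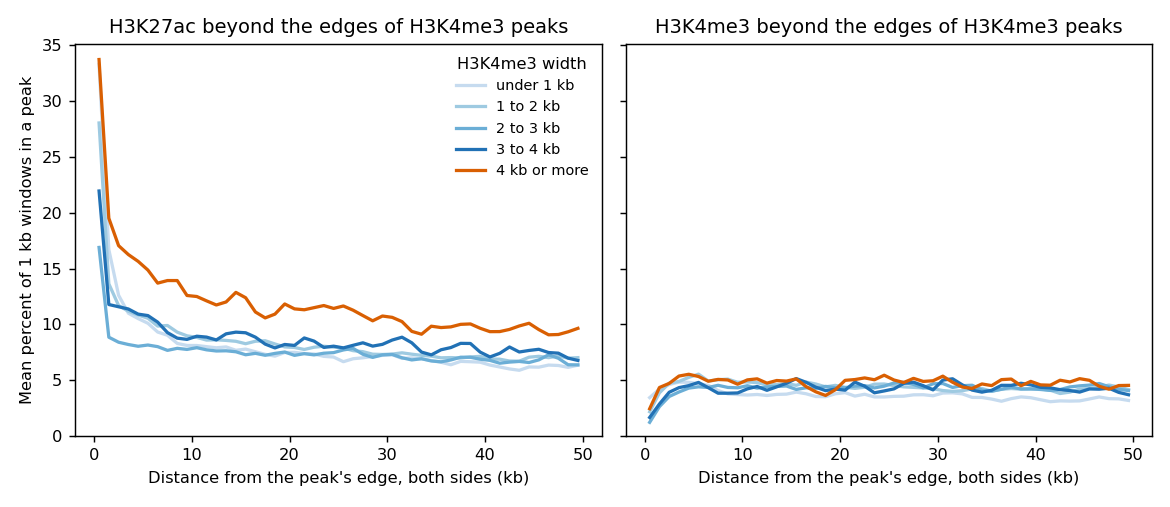
Mean percent of 1 kb windows covered by H3K27ac (left) and H3K4me3 (right) against the distance in kb from the edge of an H3K4me3 peak, both sides averaged, with 1 line per width class. For H3K27ac the line of the broad peaks falls from 33.7% in the first kb to 9.63% in the last and stays above that of the 3 to 4 kb class, which falls from 21.9 to 6.75%. The line of peaks under 1 kb starts beside that of the broad peaks, at 33.3%, and falls to 6.33%. The H3K4me3 lines lie close together.

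Among the broad peaks the flanking acetylation again rose with width. The median over 50 kb was 7.55% (interval 6.80 to 8.42%) at 4 to 5 kb, 9.57% (interval 8.54 to 10.8%) at 5 to 6 kb, 13.4% (interval 11.1 to 16.3%) at 6 to 8 kb and 14.5% (interval 12.2 to 17.8%) at 8 kb or more. The interval of the narrowest group overlapped none of the other 3. Among H3K4me3 peaks scoring 3100 or more, the median was 4.72% (interval 4.57 to 4.93%) at 2 to 3 kb and 6.02% at 3 to 4 kb. In broad peaks of that score it was 9.21% (interval 8.37 to 9.99%). That score was reached by 88.2, 96.7 and 98.7% of these classes. These are therefore nearly the same peaks and give no separate check of the order.

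Part of the flanking acetylation was in H3K27ac peaks that touched no H3K4me3, a pattern known from distal enhancers. Broad peaks had a median of 3 and a mean of 3.77 such peaks within 100 kb, with a range of 0 to 24. The median was 2 and the mean 2.98 for H3K4me3 peaks of 3 to 4 kb. Only 13.8% of broad peaks (interval 11.7 to 16.0%) had none, against 22.3% (interval 20.4 to 24.2%) of the 3 to 4 kb class and 26.5% of all H3K4me3 peaks. The mean rose from 3.37 at 4 to 5 kb to 5.21 at 8 kb or more. The number of other H3K4me3 peaks within 100 kb differed less, with means of 4.47 for broad peaks and 4.07 for the 3 to 4 kb class.

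H3K27ac was present in both 5 kb flanks of 465 broad peaks (44.1%), in 1 of them at 443 (42.03%) and in neither at 146 (13.9%). In the 3 to 4 kb class these shares were 32.1, 43.7 and 24.2%, and over all H3K4me3 peaks 38.9, 30.6 and 30.6%. Broad peaks with acetylation on 1 side were thus about as frequent as in the 3 to 4 kb class, while those with none were fewer. Acetylation in both flanks was not particular to broad peaks, at 43.9% for peaks of 1 to 2 kb and 47.8% under 1 kb. Any overrun of the edge counts here, and H3K27ac passed both edges of 397 broad peaks. The extremes were far apart. The most acetylated surroundings were on chromosome 11, where a broad peak of 4447 bp (118071080 to 118075526) had H3K27ac over 63.6% of its 50 kb flanks and 15 peaks of H3K27ac alone within 100 kb. A peak of 6944 bp on chromosome 6 (99284450 to 99291393) had 54.9%, with H3K4me3 over only 6.21% of the same flanks, and one of 9345 bp on chromosome 5 (114245717 to 114255061) had 54.4%. At the other end, 3.13% of broad peaks (interval 2.17 to 4.37%) had no H3K27ac in the 50 kb on either side, against 6.48% (interval 5.40 to 7.69%) of the 3 to 4 kb class and 9.93% of all H3K4me3 peaks. All such peaks tie, so the 5 singled out were the first by chromosome name and start. The widest of these 5 measured 7115 bp, on chromosome 1 (16092108 to 16099222), with neither mark in its 50 kb flanks. It carried an H3K27ac peak of 5672 bp that stopped inside both edges. Of the 125 broad peaks of 6 to 8 kb, 5 (4%) had no H3K27ac in these flanks. None of the 42 peaks of 8 kb or more lacked it, and their lowest flank cover was 0.678%.

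Broad peaks were spread over the genome, with a median distance of 1.01 Mb between neighbours (interval 0.889 to 1.14 Mb). Their nearest H3K4me3 neighbour of any width was a median of 14.9 kb away (interval 13.7 to 16.8 kb), against 18 kb (interval 16.8 to 19.4 kb) for peaks of 3 to 4 kb. Another H3K4me3 peak lay within 1000 bp of 95 broad peaks (8.99%, interval 7.33 to 10.9%), against 5.56% of the 3 to 4 kb class and 7.14% of all H3K4me3 peaks. Another broad peak lay within 100 kb of 257 (24.3%, interval 21.8 to 27.02%), where 20.8% of all H3K4me3 peaks had a broad peak that near. The difference from the whole list was small. These 257 formed 109 groups, of which 80 held 2 broad peaks and 25 held 3.

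One group stood apart in size. On chromosome 13 (23520972 to 23856943) 9 broad peaks lay in 336 kb, together with 20 other H3K4me3 peaks. They measured 4027 to 8003 bp. Each met exactly 1 H3K27ac peak, and 8 of the 9 lay wholly inside it. The last 3 shared 1 H3K27ac peak of 28554 bp (23829181 to 23857734), the largest number of broad peaks on any H3K27ac peak. Only 7 H3K27ac peaks in the list met 2 or more broad peaks, 15 broad peaks in all. H3K4me3 covered 27.5% of the span and H3K27ac 38.1%. H3K4me3 covered 14.5 to 39.96% of the 50 kb flanks of 8 members, above the median of 3.30% for broad peaks, and 3.55% around the other, at 23774547 to 23778687. The members at 23633518 to 23637922 and 23661598 to 23669600 had the most H3K27ac in their flanks, 56.2% each. The next largest groups were 5 broad peaks in 149 kb on chromosome 14 (51563238 to 51712244) and a pair of groups of 4, in 46.5 kb on chromosome 17 (35335533 to 35381981) and in 214 kb on chromosome 11 (6314669 to 6528666). H3K27ac covered 54.0, 81.3 and 22.7% of these spans, so the acetylated share of the span differed widely between the groups.

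Chromosomes differed moderately in the share of H3K4me3 peaks that were broad. The share was highest on chromosome 11, at 7.81% (111 of 1422, interval 6.47 to 9.32%), followed by chromosome 13 at 7.64% (interval 5.87 to 9.75%) and chromosome 19 at 7.45%. Without the group of 9 and the H3K4me3 peaks among them, chromosome 13 had 6.73% (interval 5.04 to 8.78%). The lowest shares were on the X chromosome, 3.32% (18 of 542, interval 1.98 to 5.198%), chromosome 2, 3.77% (56 of 1484, interval 2.86 to 4.87%), and chromosome 4, 4.38% (interval 3.27 to 5.74%). Chromosome 4 nonetheless held the widest and the fourth widest peak. No test was made across the 20 chromosomes, and neighbouring peaks are not independent.

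**Figure D5:**
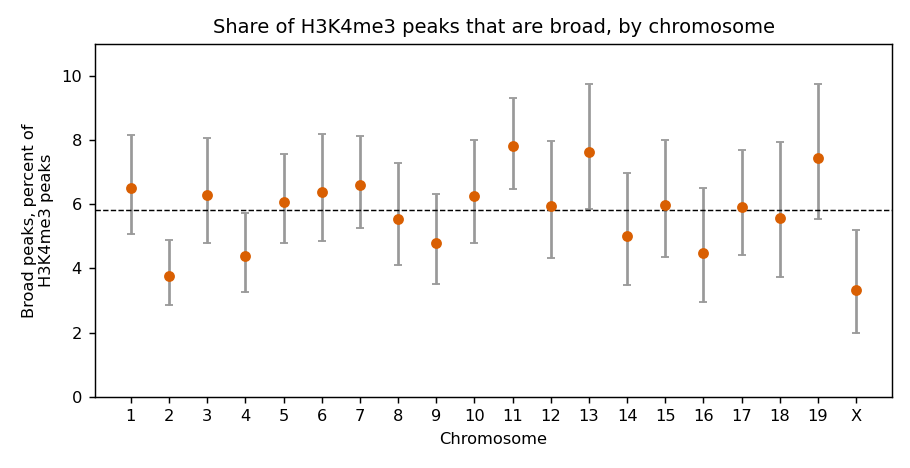
Broad peaks as a percent of the H3K4me3 peaks of each autosome and the X chromosome, with exact 95% binomial intervals; the dashed line is the share over the whole list, 5.83%. Chromosomes 11 and 13 lie above the line, and chromosomes 2, 4 and X lie below it, with intervals that do not reach it.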

How the data were processed

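The authors called peaks with MACS on mm9, per the submitters' processing notes. Each mark has 1 deposited list of peaks. The sources used here do not give the version, aligner, depth or use of the IgG library. The score of each peak is the authors' own deposited value, undefined by any header, with a lowest value of 50.01 in both lists and many ties at 3100. A deeper library tends to yield more and wider peaks, so widths and cover depend on depth. The IgG library was not analysed here. Groups follow the sample titles.

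Peak widths (end minus start), the bases covered by the other list and flanking windows were computed in Python 3.11.15 (SciPy 1.17.1, NumPy 2.4.6, pandas 2.3.3), with code checked on simulated intervals. Shares carry exact Clopper-Pearson and medians order-statistic 95% intervals. H3K27ac passes an edge when 1 peak spans it.

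Members, width classes and measures were chosen with earlier results of these data known. Regions are named by rule: the 10 widest; 5 each nearest the limit on both sides, least covered, with most H3K27ac peaks, with highest and lowest flank cover, and lowest score; and the 3 largest groups. Some are given only as ranges. Gene content, promoter sequence and the labelled cell type's markers were not examined, since no mm9 annotation was used here. Alternatives covered the width limit, joining, the score and length of the H3K27ac list, the overlap rule and the distance.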

Additional observations from a re-analysis of the deposited data

How the results depend on the processing

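The 39 alternative values split into 21 that fell inside the main interval (number of peaks: within 1.5 times) and 18 that fell outside. The number of broad peaks was 1755 with a limit of 3500 bp and 422 with 5000 bp, as a shifted limit must give. With these limits the median H3K27ac cover was 95.7 and 98.4% and the flank cover 8.16 and 11.2%. With 5000 bp, a limit added for these results after the data were seen, 42.2% were passed at both edges and 12.3% had another broad peak within 100 kb. The share overlapping H3K27ac was 99.5% when 50% of the length had to be covered and 99.6% with the H3K27ac list cut to the length of the H3K4me3 list. That shorter list gave a flank cover of 7.83%, beside 5.08% for peaks of 3 to 4 kb, and 2.84% of broad peaks meeting 2 or more H3K27ac peaks. That last share was the least stable: 5.01% with H3K27ac scores of at least 100, 0.189% with H3K27ac peaks within 1000 bp joined and 13.8% with H3K4me3 peaks joined. The share with another broad peak nearby was 15.9% within 50 kb, 37.6% within 200 kb and 29.1% with H3K4me3 peaks joined. Restricting H3K4me3 to scores of 3100 or more, also added after the data were seen, moved none of the 7 results outside its interval. It left out only 14 broad peaks, so the values could hardly move. No paired analysis was possible because each mark had 1 library. Depth is unknown, so weak acetylation in flanks may be missed, and start sites inside broad peaks were not examined.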
